A study of Capra hircus with 12 samples.

Results

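The comparison described here set 4 libraries made after a middle dose of glucose against 4 made after a low dose, 8 of the 12 libraries of an RNA sequencing series on the mammary gland of the dairy goat (Capra hircus). All 8 came from biopsies of the gland of lactating females into which glucose had been infused, and they were chosen by their dose label alone. The other 4 libraries had received a high dose. They entered here through the choice of genes tested, the scaling, the shared estimate of the spread between libraries and the correlations between libraries. The sources used here give neither the doses in numbers nor the goats' breed, age or time of biopsy. No uninfused gland was analysed here, so each difference is between doses. The labels do not tell whether the libraries at a dose stem from different goats. The p-values therefore reflect the spread among these samples alone, part of which may be technical.

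The secretory cell of the lactating mammary gland makes milk protein, lactose and fat at the same time, largely under the control of prolactin acting through STAT5. Glucose is the precursor of lactose, which draws water into milk, and in the cell it also feeds glycolysis and supplies glycerol and reducing power for milk fat. In ruminants milk fatty acids are built mostly from acetate rather than from glucose. The gland also holds dividing epithelial progenitors, myoepithelial cells that contract to eject milk, blood vessels, connective tissue and leucocytes.

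Values below are read counts per gene in CPM, counts scaled to a common library size corrected for composition. Values of single libraries are listed in the order of replicates 1 to 4. Total counts were 9555072 to 11771785 per library, with means of 10588199.5 ± 1012986 (SD, n = 4) at the middle dose and 10963922 ± 602208 at the low dose (exact permutation test, two-sided, p = 0.543). The 9 milk protein genes held 2.61%, 2.18%, 12.3% and 13.7% of the counts at the low dose and 52%, 57.7%, 3.44% and 59% at the middle dose. Middle replicate 3 thus lay inside the low-dose range, and the other 3 middle libraries, called milk-rich below, lay far above it. The doses overlapped, and the exact permutation test on the log2 share gave p = 0.0857 (two-sided, 70 arrangements, the smallest p possible being 0.0286). Without middle replicate 3 the exact test gave p = 0.0286, the smallest that its 35 arrangements allow. That library stands apart by its own milk share, so this p describes what it decides and is not a second test of dose. Reads outside the milk protein genes numbered 3919423 to 5645664 in middle replicates 1, 2 and 4 but 9623221 in middle replicate 3, against 9527253 to 10961530 at the low dose. Genes with at least 1 read numbered 14461 ± 372.3 (SD, n = 4) at the middle dose and 15132.5 ± 100.6 at the low dose, with no overlap (exact permutation test, two-sided, p = 0.0286, the smallest possible). With milk reads left out and every library thinned to 3919423 reads, the ranges were 14157 to 14599 and 14657 to 14863, still without overlap. On the first principal component of log2 CPM, which held 55.9% of the variance, middle replicates 1, 2 and 4 lay between 62.49 and 75.82. Middle replicate 3 lay at -46.22, beside low replicates 1, 2 and 4 (-56.81 to -47.71), and low replicate 3 lay at -5.53.

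**Figure D1:**
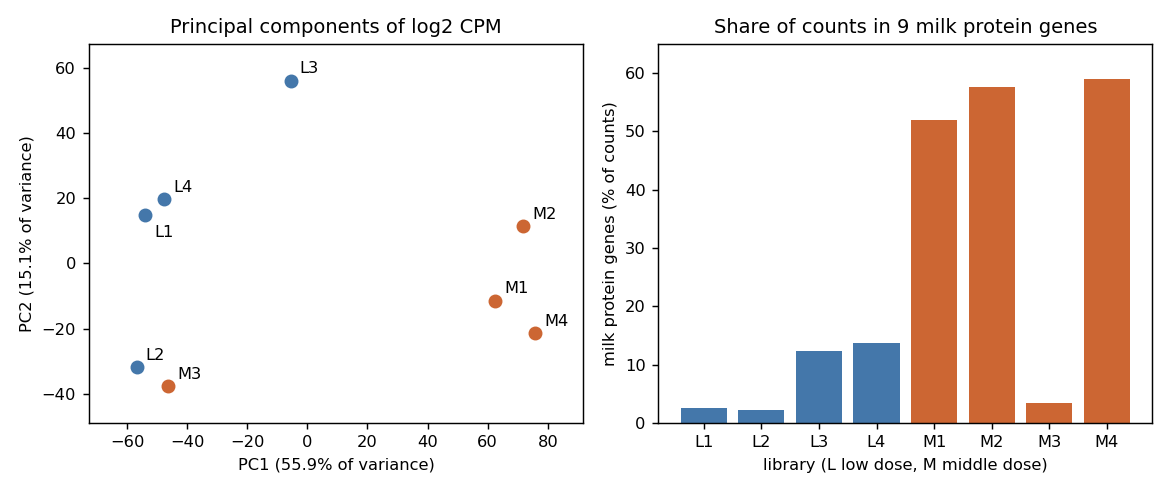
The left panel plots the 8 libraries on the first and second principal components of log2 CPM (unitless scores), low dose (L1 to L4) in blue and middle dose (M1 to M4) in orange. The right panel shows, as bars, the percent of each library's counts in 9 milk protein genes: M1, M2 and M4 held 52% to 59%, M3 held 3.44% and the low-dose libraries 2.18% to 13.7%.

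With all 4 middle libraries, no gene passed the test at an adjusted p below 0.05 (edgeR quasi-likelihood test, 13624 genes tested, 0% called), and the smallest adjusted p was 0.0735. At an unadjusted p below 0.05 there were 1697 genes higher at the middle dose (12.5%) and 1537 lower (11.3%). The 4 middle libraries lay all above the 4 low libraries in 808 genes (5.93%) and all below them in 806 (5.92%). DESeq2 on the same counts called 1410 genes, 826 higher and 584 lower. limma voom with quality weights, which gave middle replicate 3 a weight of 0.323 and the other middle libraries weights from 1.15 to 3.18, called 4701 (2312 higher, 2389 lower). Leaving out middle replicate 3, edgeR called 2415 genes, 1209 higher (8.87%) and 1206 lower (8.85%). Leaving out low replicate 2 it called 16, leaving out middle replicate 2 it called 1, and leaving out any other single library it called 0. Middle replicate 3 stands apart by its own expression, so the fit without it describes what this library decides and is not a second test of dose. It is named as "without middle replicate 3" wherever its values are used.

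**Figure D2:**
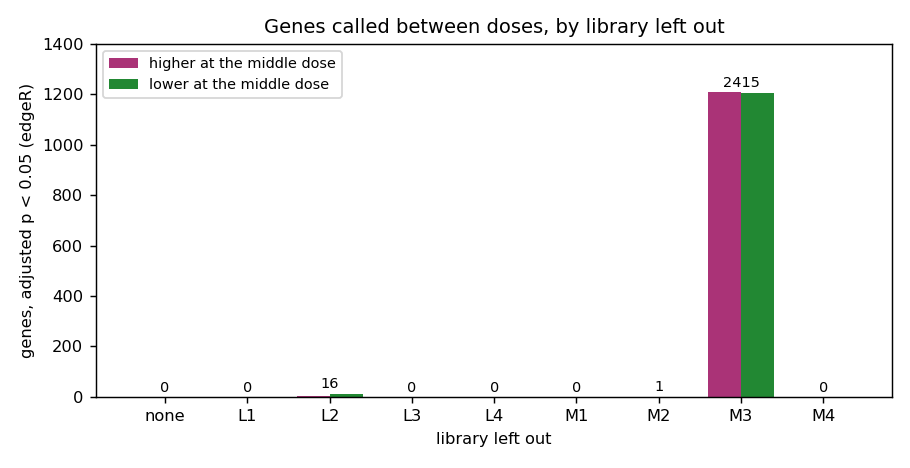
Bars give the number of genes at an adjusted p below 0.05 in edgeR, higher (purple) or lower (green) at the middle dose, when none or 1 of the 8 libraries was left out; the number above each pair is their sum. The sum was 2415 without M3, 16 without L2, 1 without M2 and 0 otherwise.

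The position of middle replicate 3 was read in genes chosen without its values. Of the 1209 genes called higher in the fit without it, it lay above all low libraries in 398 (32.9%), within their range in 686 and below all of them in 125. It was nearer to the low-dose mean than to the mean of the other middle libraries in 1040 of these genes (86%). Of the 1206 genes called lower, it lay below all low libraries in 419 (34.7%) and nearer to the low-dose mean in 979 (81.2%). Over all genes tested, the shares above and below were 19.9% and 20.2%, and middle replicate 3 was nearer to the low-dose mean in 67%. With each other library left out of its own dose mean in turn, the other middle libraries were nearer to the opposite dose in 23.6% to 32.7% of genes. The low libraries were so in 25.5% to 46.2%. The middle-dose means used for these libraries include middle replicate 3, so their shares are not like for like with its 67%. Across genes, the log2 CPM of middle replicate 3 had a Spearman correlation of 0.9815 with low replicate 2, the highest with any of the other 11 libraries. The correlation was 0.9254 to 0.9563 with the other low libraries and 0.9309 to 0.9632 with the high-dose libraries. With the other middle libraries it was 0.8999 to 0.9144. These values describe middle replicate 3 and do not treat genes as independent replicates. Why this library stands apart, an exchanged label included, was not tested, and its label was kept.

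**Figure D3:**
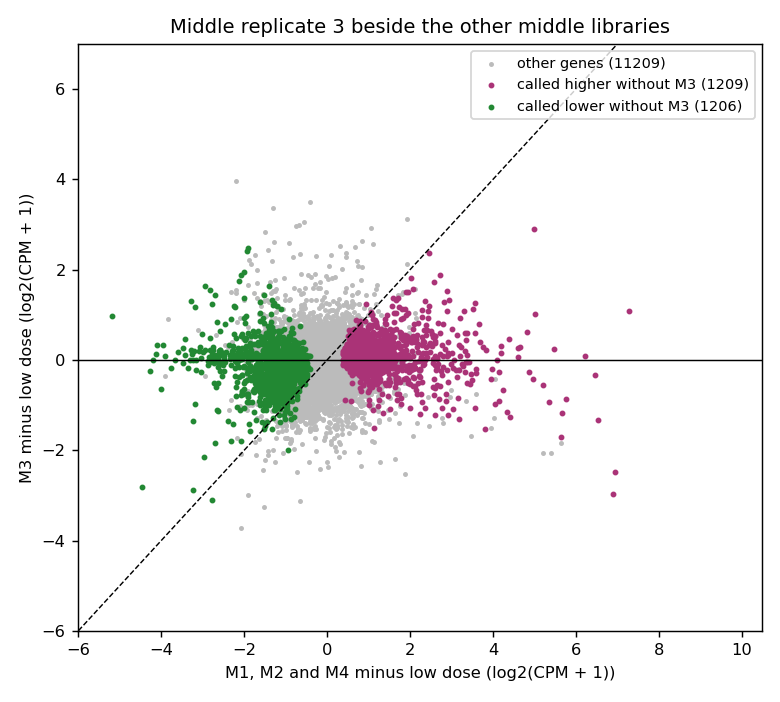
Each point is 1 of the 13624 genes tested, with the mean of M1, M2 and M4 minus the low-dose mean on the x axis and M3 minus the low-dose mean on the y axis, both as log2(CPM + 1). Purple points were called higher (1209) and green points lower (1206) in the fit without M3; most lie near the horizontal line, where M3 equals the low-dose mean, and a smaller number near the dashed line, where M3 equals the other middle libraries.

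Composition scaling bears on every direction that follows, because milk transcripts took more than 50% of the counts of 3 middle libraries. The median log2 difference of all genes was -0.030 with the scaling used here and -0.86 by library size alone. Among genes at an unadjusted p below 0.05, 52.5% were higher at the middle dose with that scaling and 2.63% by library size alone. The genes without overlap were then 53 above and 2118 below. Medians of gene lists are therefore to be read against those of all genes, and lists whose sign turned by library size alone are named where they appear. Leaving the milk protein genes out before scaling gave an all-gene median of -0.034 and turned the sign of no list's median. In a bulk biopsy, fewer cells of a type and less RNA per cell cannot be told apart.

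Of the 9 milk protein genes, 8 were higher at the middle dose and 1, LTF, was lower, with a median log2 difference of 4.24. At an unadjusted p below 0.05 there were 7 higher and 1 lower (12.5% and 11.3% of all genes were). No milk gene was free of overlap, whereas 5.93% of all genes lay all above and 5.92% all below. Middle replicate 3 did not exceed the low range in any of the 8 higher genes. CSN2 (gene ID 100860784), which encodes beta-casein, measured 6132, 5788, 31784 and 46954 CPM in the low-dose libraries and 449652, 608673, 10326 and 649149 CPM in the middle-dose libraries. The log2 difference was 4.24, SE 1.39, adjusted p = 0.109, and without middle replicate 3 it was 4.65, adjusted p = 0.0237. LALBA encodes alpha-lactalbumin, the milk protein that turns a galactosyltransferase into lactose synthase, and reached 52.7, 155, 891 and 2739.6 CPM at the low dose against 52751, 53964, 796 and 71259 CPM at the middle dose. Middle replicates 1, 2 and 4 were far above every low library, and middle replicate 3 lay below low replicates 3 and 4. LALBA had a log2 difference of 5.54 (SE 1.68, adjusted p = 0.0957) and 5.95 (adjusted p = 0.0237) without middle replicate 3. PAEP, the gene of the whey protein beta-lactoglobulin, had 5479, 7514, 11569 and 17578 CPM after the low dose and 72961, 82847, 8477 and 81870.5 CPM after the middle dose. The difference in PAEP was 2.55 on the log2 scale (SE 0.78, adjusted p = 0.0983). Here too the low range took in middle replicate 3. CSN1S1 (alpha-s1-casein) stood at 44.8, 76.5, 1466 and 187 CPM at the low dose and at 16717, 26728, 21.4 and 20999.7 CPM at the middle dose. The tables give CSN1S1 a span of only 974 bases on a separate scaffold, so its counts may cover part of the gene. GLYCAM1, a mucin-like milk protein, measured 53.7, 107, 5577 and 3722 CPM in the low-dose libraries and 24346, 35508, 165 and 29366 CPM in the middle-dose libraries. Middle replicate 3 was below every low library in CSN1S1 and close to the lower low libraries in GLYCAM1. LPO, lactoperoxidase, an antibacterial enzyme of milk, reached 2.67, 0.769, 33.5 and 44.5 CPM at the low dose against 949, 1463, 0.804 and 1336 CPM at the middle dose. LTF, lactoferrin, an iron-binding protein abundant in dry and inflamed glands, had 1238, 103, 8458 and 1171 CPM after the low dose and 259, 681, 195 and 270.4 CPM after the middle dose. It overlapped between doses (log2 difference -2.96, SE 1.18, adjusted p = 0.161), and its low-dose mean rests largely on low replicate 3.

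Lactose synthesis joins glucose to UDP-galactose in the Golgi, and 8 of 16 listed genes of glucose uptake and lactose synthesis were higher and 8 lower, with a median of 0.13. The median was -0.68 by library size alone, 0.052 without middle replicate 3 and -0.015 without middle replicate 2. Individual steps differed. B4GALT1, the galactosyltransferase of lactose synthase, stood at 254, 478, 326 and 346 CPM at the low dose and at 979, 1207, 616 and 965 CPM at the middle dose. All 4 middle libraries exceeded all 4 low libraries, with middle replicate 3 the lowest of them. For B4GALT1 the log2 difference was 1.42 (SE 0.31, adjusted p = 0.0735). SLC35A2, the carrier that brings UDP-galactose into the Golgi, measured 6.53, 10.1, 8.19 and 8.34 CPM in the low-dose libraries and 32.1, 22.7, 13.6 and 25.5 CPM in the middle-dose libraries and did not overlap either (log2 difference 1.50, SE 0.36, adjusted p = 0.0735). UGP2, which makes UDP-glucose, reached 141, 173, 296 and 168 CPM at the low dose against 776, 744, 216 and 789 CPM at the middle dose. Middle replicate 3 lay within the low range of UGP2, as it did for SLC2A1, the main glucose transporter of the gland, which had 23.4, 15.3, 43.8 and 28.6 CPM after the low dose and 76.5, 76.1, 18.2 and 75.6 CPM after the middle dose. The difference in SLC2A1 was 1.14 on the log2 scale (SE 0.46, adjusted p = 0.165) and 1.45 (adjusted p = 0.0226) without middle replicate 3. The kinases that trap glucose and galactose were lower or did not separate. HK1, hexokinase 1, stood at 111, 89.6, 81.7 and 96.5 CPM at the low dose and at 51.7, 65.7, 74.4 and 59.9 CPM at the middle dose, and all 4 middle values were below the low values. For HK1 the log2 difference was -0.59 (SE 0.18, adjusted p = 0.0981). HK2 measured 13.3, 26.8, 5.18 and 13.8 CPM in the low-dose libraries and 6.94, 4.16, 23.6 and 5.3 CPM in the middle-dose libraries and overlapped. HK2 had a log2 difference of -0.52 (SE 0.68, adjusted p = 0.657). GALK1, galactokinase, reached 10.6, 14.3, 11 and 12.7 CPM at the low dose against 3.47, 4.86, 13.7 and 4.07 CPM at the middle dose, so that middle replicates 1, 2 and 4 were low and middle replicate 3 was within the low range. The difference in GALK1 was -0.86 on the log2 scale (SE 0.39, adjusted p = 0.209) and -1.55 (adjusted p = 0.00743) without middle replicate 3.

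Genes of milk fat synthesis were mostly higher at the middle dose. Of 20 genes of fatty acid synthesis and uptake tested, 15 were higher, with a median of 0.96 (0.041 by library size alone). At an unadjusted p below 0.05, 12 were higher and none lower, against 12.5% and 11.3% of all genes. The doses did not overlap in FASN, ACACA and CD36, the 3 genes of this list that lay all above (5.93% of all genes did). FASN, fatty acid synthase, had 1352, 2349, 1991 and 1426 CPM after the low dose and 5733, 15898, 3995 and 9543 CPM after the middle dose, and the log2 difference was 2.30, SE 0.58, adjusted p = 0.0747. ACACA, acetyl-CoA carboxylase, which makes malonyl-CoA for that enzyme, stood at 119, 128, 152 and 154 CPM at the low dose and at 588, 853, 179.5 and 925 CPM at the middle dose. For ACACA the log2 difference was 2.20 (SE 0.52, adjusted p = 0.0735). In ACACA middle replicate 3 was closer to the low libraries than to the other middle ones. CD36, a fatty acid carrier of the cell surface and fat globule membrane, measured 205, 389, 480.1 and 328 CPM in the low-dose libraries and 3078, 2639.5, 635 and 3598 CPM in the middle-dose libraries. CD36 had a log2 difference of 2.83 (SE 0.74, adjusted p = 0.0774). H-FABP, the heart-type fatty acid binding protein, reached 36.3, 42.2, 229 and 124 CPM at the low dose against 2143, 3525, 166 and 2510.2 CPM at the middle dose. LPL, the lipase that frees fatty acids from blood lipoproteins, had 39.6, 97.2, 74.9 and 216 CPM after the low dose and 1683, 2767, 107 and 2256 CPM after the middle dose. SCD1, the desaturase that makes oleic acid, stood at 40.4, 45.5, 178 and 108 CPM at the low dose and at 616, 2567, 77 and 1536 CPM at the middle dose. For H-FABP, LPL and SCD1 middle replicate 3 lay inside the low range, and the other middle libraries were above all low ones (log2 difference 4.27, SE 1.06, adjusted p = 0.0735 for H-FABP, log2 difference 3.99, SE 1.27, adjusted p = 0.104 for LPL and log2 difference 3.69, SE 1.04, adjusted p = 0.0825 for SCD1). ACLY, ATP-citrate lyase, which makes cytosolic acetyl-CoA from citrate, measured 75.3, 101.7, 62.7 and 77 CPM in the low-dose libraries and 32.2, 43.7, 102.5 and 34 CPM in the middle-dose libraries. In this gene the 3 milk-rich libraries were below every low library and middle replicate 3 was the highest of all 8. The difference in ACLY was -0.57 on the log2 scale (SE 0.34, adjusted p = 0.317) and -1.11 (adjusted p = 0.0106) without middle replicate 3.

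Triglyceride assembly and secretion of the fat globule had 14 of 16 genes higher, 11 at an unadjusted p below 0.05 (12.5% of all genes were), with a median of 1.82 that stayed positive by library size alone (0.79). MFGE8, a coat protein of the milk fat globule, reached 106, 248, 231 and 309 CPM at the low dose against 989, 2363, 512 and 1398 CPM at the middle dose without overlap (log2 difference 2.56, SE 0.53, adjusted p = 0.0735). PLIN2, which coats lipid droplets, had 297, 548, 444 and 562 CPM after the low dose and 1733, 2133, 783 and 1954 CPM after the middle dose. GPAM, which begins glycerolipid synthesis, stood at 434, 1193, 281 and 447 CPM at the low dose and at 1883, 2031, 1507 and 2807 CPM at the middle dose. Neither overlapped, with log2 difference 1.83, SE 0.47, adjusted p = 0.0762 for PLIN2 and log2 difference 1.80, SE 0.58, adjusted p = 0.105 for GPAM. Of the 16 genes, 3 lay all above (5.93% of all genes did). BTN1A1, butyrophilin, needed for globule release, measured 17.7, 36.1, 680 and 837 CPM in the low-dose libraries and 9513, 15558, 111 and 12654 CPM in the middle-dose libraries. XDH, xanthine dehydrogenase, its partner at the globule membrane, reached 1258, 2106, 3077 and 1781 CPM at the low dose against 6028, 7472, 2483 and 8639 CPM at the middle dose. Both overlapped through middle replicate 3 (log2 difference 4.59, SE 1.60, adjusted p = 0.122 and log2 difference 1.58, SE 0.43, adjusted p = 0.0813), and without it edgeR called both higher (adjusted p = 0.0324 and 0.0115). AGPAT6, an acyltransferase of glycerolipid synthesis, had 49.4, 51.2, 77.9 and 69.2 CPM after the low dose and 528, 748, 56.8 and 519 CPM after the middle dose, with middle replicate 3 again within the low range. Of 21 genes of cholesterol synthesis, 20 were higher, with a median of 1.00 that was -0.020 by library size alone. At an unadjusted p below 0.05, 13 were higher and 1 lower, against 12.5% and 11.3% of all genes. The 1 lower gene was ACAT2, a thiolase at the head of the pathway, which stood at 6.65, 7.69, 7.63 and 10.9 CPM at the low dose and at 3.05, 1.73, 6.51 and 1.43 CPM at the middle dose with no overlap. For ACAT2 the log2 difference was -1.31 (SE 0.43, adjusted p = 0.109).

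Genes of amino acid supply separated middle replicates 1, 2 and 4 from the other 5 libraries. Of 17 genes of serine and asparagine synthesis and the ATF4 response, a transcription programme for amino acid shortage, 16 were higher, 10 at an unadjusted p below 0.05 (12.5% of all genes were), with a median of 1.21 (0.10 by library size alone). Middle replicate 3 was nearer to the low-dose mean in 16 of the 17, against 67% of all genes. PSAT1, an aminotransferase of serine synthesis, measured 64.2, 96, 57.6 and 98.2 CPM in the low-dose libraries and 552, 681, 85.8 and 654 CPM in the middle-dose libraries. PSAT1 had a log2 difference of 2.64 (SE 0.58, adjusted p = 0.0735) and 2.99 (adjusted p = 0.00471) without middle replicate 3. ASNS, asparagine synthetase, reached 13.8, 15.1, 14.2 and 20.1 CPM at the low dose against 96.5, 175, 10.9 and 113 CPM at the middle dose. The difference in ASNS was 2.64 on the log2 scale (SE 0.63, adjusted p = 0.0735). ATF5, a transcription factor of the same programme, had 11.6, 13.2, 16.5 and 12.4 CPM after the low dose and 128, 124, 12.9 and 226 CPM after the middle dose. For ATF5 the log2 difference was 3.19 (SE 0.67, adjusted p = 0.0735). MTHFD2, a mitochondrial enzyme of folate metabolism, stood at 19.9, 15.1, 25.7 and 23.3 CPM at the low dose and at 108, 105, 19 and 109 CPM at the middle dose. In each of these genes middle replicate 3 was inside or below the low range. ATF4 itself measured 191, 219, 232 and 264 CPM in the low-dose libraries and 618, 712, 207 and 565 CPM in the middle-dose libraries. ATF4 had a log2 difference of 1.21 (SE 0.44, adjusted p = 0.13). Of 25 amino acid transporter genes 17 were higher and 8 lower, with a median of 0.67 that was -0.31 by library size alone. SLC7A5, which exchanges large neutral amino acids, reached 30.8, 22.4, 34.9 and 57.2 CPM at the low dose against 256, 349, 18.6 and 350.4 CPM at the middle dose. The difference in SLC7A5 was 2.74 on the log2 scale (SE 0.71, adjusted p = 0.0774) and 3.13 (adjusted p = 0.00492) without middle replicate 3. SLC1A5, a carrier of glutamine and other neutral amino acids, had 32.5, 49.2, 41.6 and 42.8 CPM after the low dose and 298, 320.5, 49.1 and 291 CPM after the middle dose. For SLC1A5 the log2 difference was 2.53 (SE 0.59, adjusted p = 0.0735). SLC7A8, another exchanger of neutral amino acids, ran opposite, and stood at 13.4, 16.4, 18.6 and 20.5 CPM at the low dose and at 2.78, 0.867, 16.4 and 3.87 CPM at the middle dose. SLC7A8 had a log2 difference of -1.46 (SE 0.60, adjusted p = 0.171) and -2.79 (adjusted p = 0.00513) without middle replicate 3. The aminoacyl-tRNA synthetases, which load amino acids for translation, were higher in 18 of 20, with a median of 0.69 (-0.32 by library size alone) and 10 called higher without middle replicate 3 (8.87% of all genes were). CARS, the enzyme for cysteine, measured 11.9, 12.5, 12.3 and 14.6 CPM in the low-dose libraries and 63.9, 71.5, 13.5 and 59.5 CPM in the middle-dose libraries. GARS, that for glycine, reached 51.3, 63.5, 59.8 and 72.9 CPM at the low dose against 244, 361, 52.1 and 289.5 CPM at the middle dose. Middle replicate 3 was at low-dose levels in both. YARS, for tyrosine, had 23.8, 44.7, 29.1 and 38.7 CPM after the low dose and 96.1, 131, 49.1 and 127 CPM after the middle dose and did not overlap. The difference in YARS was 1.56 on the log2 scale (SE 0.42, adjusted p = 0.0803).

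Transporters that load minerals into milk were higher in 11 of 13, with a median of 0.96 (-0.22 by library size alone). At an unadjusted p below 0.05, 6 were higher (12.5% of all genes were). None lay all above or all below, against 5.93% and 5.92% of all genes. SLC34A2, a phosphate carrier, stood at 7.72, 3.29, 35.9 and 20.8 CPM at the low dose and at 1395, 618, 13 and 1089 CPM at the middle dose (log2 difference 5.52, SE 1.40, adjusted p = 0.0762). SLC30A2, which loads zinc into secretory vesicles, measured 0.475, 1.26, 4.83 and 1.08 CPM in the low-dose libraries and 127, 106, 1.97 and 101 CPM in the middle-dose libraries. SLC30A2 had a log2 difference of 5.46 (SE 1.35, adjusted p = 0.0735). ATP2C2, a calcium pump of the Golgi, reached 17.2, 24.1, 102 and 50.1 CPM at the low dose against 698, 758, 42.6 and 716 CPM at the middle dose. The difference in ATP2C2 was 3.51 on the log2 scale (SE 0.96, adjusted p = 0.0815). The 3 milk-rich libraries were above all low libraries in these genes and middle replicate 3 was within the low range.

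**Figure D4:**
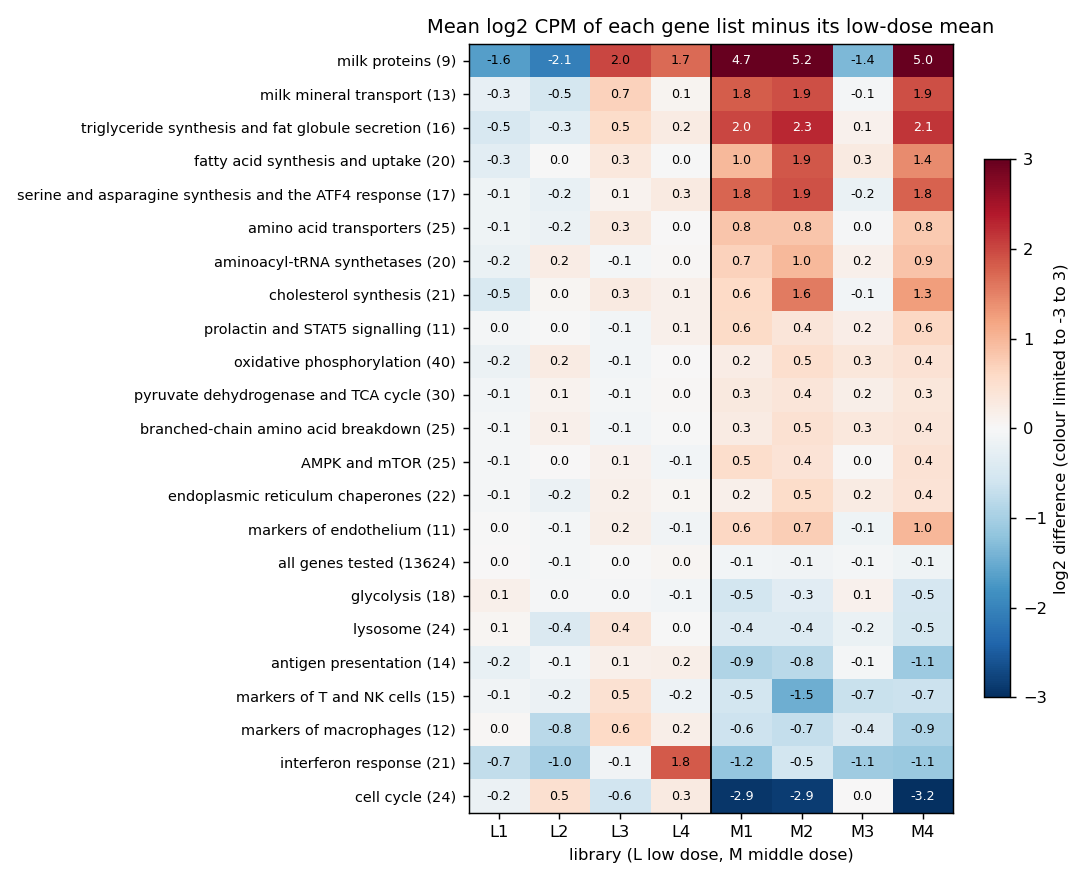
Each row is a gene list with the number of genes tested, each column a library (L low dose, M middle dose), and each cell the mean log2 CPM of the list minus its mean over the 4 low libraries, in log2 units. The milk protein, fat and amino acid rows are high in M1, M2 and M4 and near or below the low-dose mean in M3, the cell cycle row is low in the same 3 libraries, and the T and NK cell row is low in all 4 middle libraries.

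Mitochondrial genes differed by less, and in most of them middle replicate 3 lay with the other middle libraries. All 40 genes of oxidative phosphorylation tested were higher at the middle dose, by 0.003 to 0.70 on the log2 scale, with a median of 0.40 (-0.47 by library size alone, against -0.86 for all genes). Of these, 18 had an unadjusted p below 0.05 (12.5% of all genes were higher at that level) and 11 lay all above (5.93% of all genes did). Middle replicate 3 was nearer to the low-dose mean in only 14 of the 40, against 67% of all genes. The other 16 genes of the list, most of them subunits of complex IV, were not analysed here. NDUFA6, a subunit of complex I, had 23.7, 27, 27.7 and 23.4 CPM after the low dose and 37.9, 54.6, 33.8 and 39.1 CPM after the middle dose. For NDUFA6 the log2 difference was 0.70 (SE 0.19, adjusted p = 0.0815). ATP5C1, the gamma subunit of ATP synthase, stood at 80.1, 94.9, 93.3 and 81.1 CPM at the low dose and at 129, 128, 107 and 122 CPM at the middle dose (log2 difference 0.48, SE 0.13, adjusted p = 0.0822). Of 30 genes of pyruvate entry and the TCA cycle, 25 were higher, with a median of 0.30 (-0.55 by library size alone), 5 lay all above (5.93% of all genes did) and 2 all below (5.92%). SDHB, a subunit of succinate dehydrogenase, measured 49, 62.6, 54.2 and 42.2 CPM in the low-dose libraries and 76.8, 77.7, 66.9 and 74.2 CPM in the middle-dose libraries. The difference in SDHB was 0.51 on the log2 scale (SE 0.14, adjusted p = 0.0853). The pair below were isocitrate dehydrogenases. IDH2, the mitochondrial NADP enzyme, reached 39.2, 41.9, 32.8 and 38.8 CPM at the low dose against 18.1, 13, 22.7 and 18.7 CPM at the middle dose. For IDH2 the log2 difference was -1.07 (SE 0.20, adjusted p = 0.0735). IDH3A, a subunit of the NAD enzyme, had 24.1, 20.8, 21.8 and 28.8 CPM after the low dose and 10, 12.3, 17.1 and 10.6 CPM after the middle dose. IDH3A had a log2 difference of -0.92 (SE 0.20, adjusted p = 0.0735). In the mitochondrial pyruvate carrier, which brings pyruvate to that cycle, middle replicate 3 stayed within the low range. MPC1 stood at 42.6, 80.3, 130.2 and 74.4 CPM at the low dose and at 321, 500.4, 102 and 351 CPM at the middle dose. MPC2 measured 11.5, 12, 23.1 and 21.6 CPM in the low-dose libraries and 172, 125, 13.7 and 149 CPM in the middle-dose libraries. Their differences were 1.96 (SE 0.54, adjusted p = 0.0818) for MPC1 and 2.75 (SE 0.76, adjusted p = 0.0822) for MPC2 on the log2 scale. Among 25 genes of branched-chain amino acid breakdown, 19 were higher, with a median of 0.28 (-0.55 by library size alone), 8 lay all above (5.93% of all genes did) and 1, ACAD8, all below (5.92%). PPM1K, the phosphatase that activates the branched-chain ketoacid dehydrogenase, reached 77.4, 98.6, 66.7 and 92.2 CPM at the low dose against 308, 321, 117 and 419.7 CPM at the middle dose (log2 difference 1.80, SE 0.38, adjusted p = 0.0735). BCKDK, the kinase that inactivates it, had 27.2, 35.7, 29.8 and 24.9 CPM after the low dose and 60.8, 47.3, 40.5 and 58.5 CPM after the middle dose. For BCKDK the log2 difference was 0.81 (SE 0.19, adjusted p = 0.0735). HIBADH, a dehydrogenase of valine breakdown, stood at 49.3, 54.8, 54.8 and 48.9 CPM at the low dose and at 92.3, 147, 63.5 and 99.6 CPM at the middle dose. HIBADH had a log2 difference of 0.95 (SE 0.24, adjusted p = 0.0762). ACAD8, an acyl-CoA dehydrogenase of the same branch, measured 14.8, 16.8, 18 and 17 CPM in the low-dose libraries and 9.72, 9.71, 14.6 and 9.58 CPM in the middle-dose libraries. The difference in ACAD8 was -0.60 on the log2 scale (SE 0.19, adjusted p = 0.103). BCAT2, the mitochondrial aminotransferase that starts the pathway, reached 59.2, 71, 38 and 40.3 CPM at the low dose against 79.7, 97.3, 143 and 76.6 CPM at the middle dose, and here middle replicate 3 was the highest library (log2 difference 0.93, SE 0.33, adjusted p = 0.125).

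Glycolytic genes were lower in 12 of 18, with a median of -0.35 (-0.69 without middle replicate 3, -1.0 by library size alone). At an unadjusted p below 0.05, 8 were lower and 1 higher (11.3% and 12.5% of all genes were), and 4 lay all below (5.92% of all genes did). The counts of lower genes include LDH-A, whose name was added to the list after its values were seen. LDH-A, the lactate dehydrogenase subunit that favours lactate formation, had 81.4, 39.4, 73.5 and 58.8 CPM after the low dose and 28.5, 27.4, 25.7 and 24 CPM after the middle dose. Middle replicate 3 lay amid the other middle libraries. LDH-A had a log2 difference of -1.26 (SE 0.22, adjusted p = 0.0735). GAPDH, which oxidises glyceraldehyde phosphate, stood at 538, 384, 456 and 401 CPM at the low dose and at 227, 222, 319 and 203 CPM at the middle dose. The difference in GAPDH was -0.87 on the log2 scale (SE 0.20, adjusted p = 0.0735). TPI1, triose phosphate isomerase, measured 165, 113, 145 and 117 CPM in the low-dose libraries and 92.6, 51.2, 105 and 64.6 CPM in the middle-dose libraries. PGAM1, phosphoglycerate mutase, reached 83.6, 70.4, 73.7 and 64.9 CPM at the low dose against 25.8, 48.4, 57.1 and 26.5 CPM at the middle dose. Neither overlapped (log2 difference -0.78, SE 0.24, adjusted p = 0.0947 for TPI1 and log2 difference -0.89, SE 0.28, adjusted p = 0.101 for PGAM1). ENO1, enolase 1, differed from these by its middle replicate 3, and had 333, 322, 254 and 267 CPM after the low dose and 136, 175, 323 and 126 CPM after the middle dose. For ENO1 the log2 difference was -0.63 (SE 0.27, adjusted p = 0.184) and -1.01 (adjusted p = 0.00917) without middle replicate 3. Of 8 genes of the glucose-responsive list, which holds the factors MondoA (MLXIP) and ChREBP (MLXIPL), their partner MLX and genes that respond to glucose, 3 were higher and 5 lower (median -0.43, -0.2 without middle replicate 4, -1.15 by library size alone), and 2 lay all below (5.92% of all genes did). KLF10, a repressor induced by those factors, stood at 108, 42.9, 104 and 106 CPM at the low dose and at 40.3, 32.4, 32 and 16.3 CPM at the middle dose with no overlap (log2 difference -1.57, SE 0.32, adjusted p = 0.0735). ARRDC4, an arrestin that lowers glucose uptake, measured 74.8, 47.8, 77.6 and 81.6 CPM in the low-dose libraries and 36.8, 33.5, 46.9 and 32.2 CPM in the middle-dose libraries, also without overlap. The difference in ARRDC4 was -0.91 on the log2 scale (SE 0.21, adjusted p = 0.0735). TXNIP, the best known gene of this kind and related to ARRDC4, reached 1504, 611, 1570.1 and 1063 CPM at the low dose against 1691, 1465, 815 and 1651 CPM at the middle dose and overlapped. For TXNIP the log2 difference was 0.24 (SE 0.43, adjusted p = 0.756).

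In the prolactin pathway 9 of 11 genes were higher, with a median of 0.43 (-0.52 by library size alone), and 2 lay all above (5.93% of all genes did). ELF5, the transcription factor that drives alveolar differentiation, had 563, 994, 981 and 676 CPM after the low dose and 2849.5, 2761, 1128 and 3348 CPM after the middle dose. ELF5 had a log2 difference of 1.65 (SE 0.40, adjusted p = 0.0735) and 1.89 (adjusted p = 0.0101) without middle replicate 3. PRLR, the prolactin receptor, stood at 682, 901, 788 and 619 CPM at the low dose and at 1204, 1078, 1211 and 1262 CPM at the middle dose, with middle replicate 3 level with the others (log2 difference 0.67, SE 0.27, adjusted p = 0.169). STAT5A, the transcription factor downstream of that receptor, measured 240.2, 356, 225 and 224 CPM in the low-dose libraries and 261, 295, 336 and 283 CPM in the middle-dose libraries and overlapped. For STAT5A the log2 difference was 0.17 (SE 0.21, adjusted p = 0.641). Of 25 genes of AMPK and mTOR signalling, the cell's energy and nutrient sensors, 21 were higher and 6 lay all above (5.93% of all genes did), with a median of 0.32 (-0.58 by library size alone). CAMKK2, a kinase that activates AMPK, reached 16.8, 21.6, 22.9 and 18.5 CPM at the low dose against 59.9, 69.7, 24.3 and 61.1 CPM at the middle dose. CAMKK2 had a log2 difference of 1.42 (SE 0.32, adjusted p = 0.0735). PRKAB1, a regulatory subunit of AMPK, had 46.3, 69.2, 64 and 64.8 CPM after the low dose and 133, 114, 79.6 and 120.4 CPM after the middle dose. The difference in PRKAB1 was 0.87 on the log2 scale (SE 0.24, adjusted p = 0.0815). In insulin signalling 8 of 16 genes were higher and 8 lower (median 0.034, -0.85 by library size alone, its sign also turning when any 1 of 4 libraries was left out). IRS1, an adaptor of the insulin receptor, stood at 56.5, 43.3, 57.1 and 59.5 CPM at the low dose and at 159, 111, 57.3 and 172 CPM at the middle dose. For IRS1 the log2 difference was 1.20 (SE 0.31, adjusted p = 0.0766) and 1.44 (adjusted p = 0.00702) without middle replicate 3. FOXO3, a transcription factor restrained by insulin, measured 165, 142, 174 and 127 CPM in the low-dose libraries and 274, 265, 209 and 293 CPM in the middle-dose libraries with no overlap. FOXO3 had a log2 difference of 0.77 (SE 0.19, adjusted p = 0.0746).

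**Figure D5:**
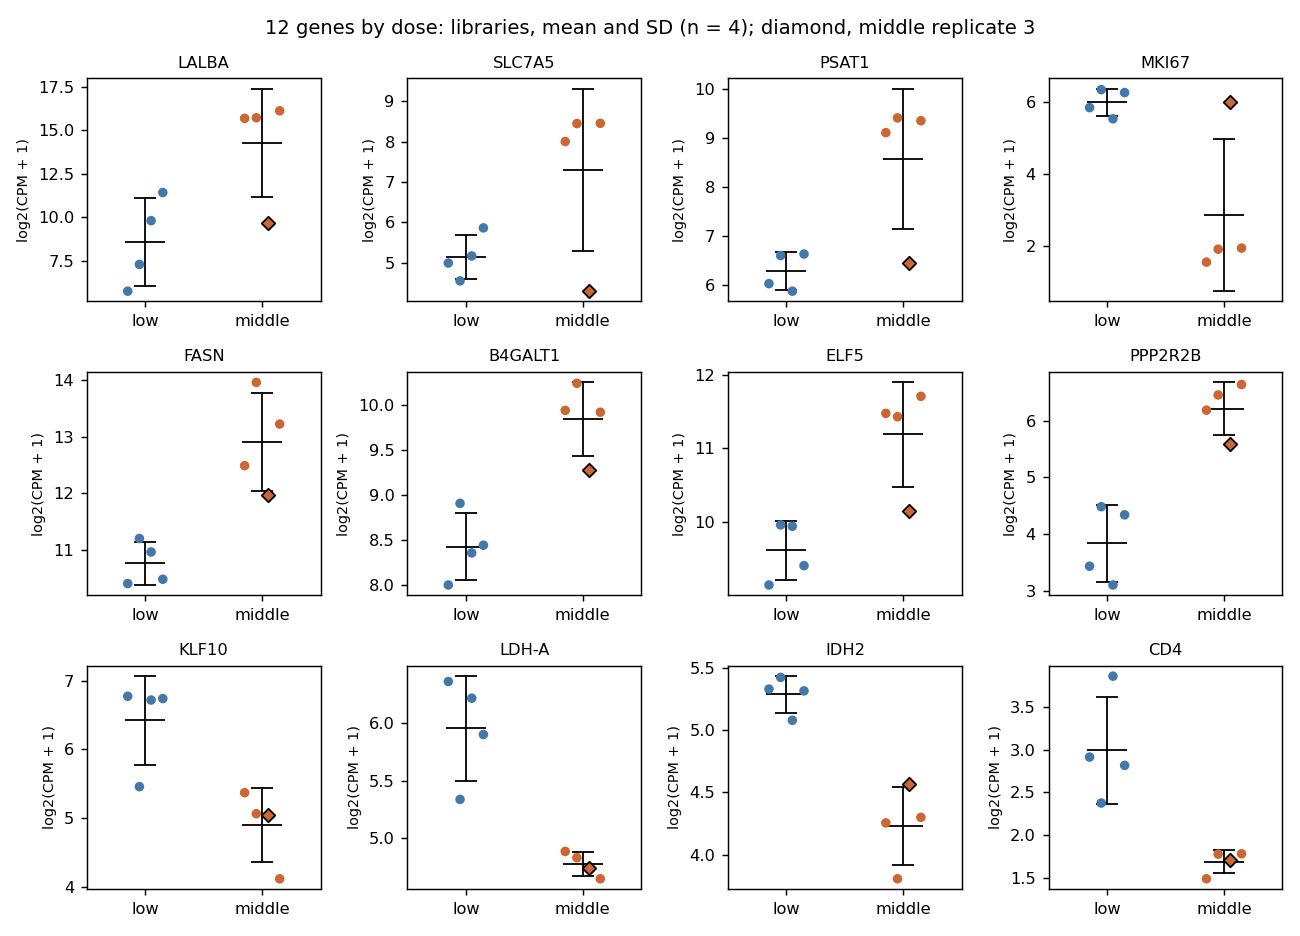
Points are single libraries as log2(CPM + 1), low dose in blue and middle dose in orange, with the mean and SD of 4 libraries in black and middle replicate 3 as a diamond. In the top row middle replicate 3 lies with the low libraries (LALBA, SLC7A5, PSAT1, MKI67), and in the 8 genes below it the middle and low libraries do not overlap.

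Among the genes of smallest p, several held all 4 middle libraries above the low dose. REC8 (gene ID 102179103), a cohesin subunit known from meiosis, reached 5.52, 7.83, 6.3 and 6.61 CPM at the low dose against 22.1, 15.4, 12.1 and 21 CPM at the middle dose. The difference in REC8 was 1.42 on the log2 scale (SE 0.23, adjusted p = 0.0735). SPATA13, a guanine nucleotide exchange factor, had 60.7, 80.7, 64.6 and 59.2 CPM after the low dose and 235, 176, 137 and 229 CPM after the middle dose. For SPATA13 the log2 difference was 1.55 (SE 0.26, adjusted p = 0.0735). FPGS, which traps folate in cells, stood at 26.4, 35.2, 29.9 and 21.2 CPM at the low dose and at 54.7, 60.9, 48.2 and 64.8 CPM at the middle dose (log2 difference 1.02, SE 0.17, adjusted p = 0.0735). In these 3 genes every middle library was above every low one and the low libraries were close together. NUDT12, a hydrolase of NADH and NAD, measured 35, 30.8, 61.3 and 31.3 CPM in the low-dose libraries and 285, 314, 97.4 and 301 CPM in the middle-dose libraries. The difference in NUDT12 was 2.65 on the log2 scale (SE 0.46, adjusted p = 0.0735). PPP2R2B, a regulatory subunit of protein phosphatase 2A, reached 9.85, 21.4, 7.63 and 19.3 CPM at the low dose against 71.7, 86.5, 46.9 and 98.4 CPM at the middle dose. For PPP2R2B the log2 difference was 2.38 (SE 0.43, adjusted p = 0.0735). CSDC2, an RNA-binding protein, had 11.3, 8.95, 13.7 and 14.8 CPM after the low dose and 105, 223, 18.5 and 104 CPM after the middle dose, where middle replicate 3 was above the low range by little. CSDC2 had a log2 difference of 3.20 (SE 0.57, adjusted p = 0.0735). A larger fold difference, from a low level at the low dose, was that of SCN7A, a sodium channel. It stood at 0.95, 5.1, 0.56 and 8.2 CPM at the low dose and at 237, 16.6, 26.2 and 363 CPM at the middle dose (log2 difference 5.44, SE 1.17, adjusted p = 0.0735). Middle replicates 1 and 4 were far above middle replicates 2 and 3.

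Other genes of small p held all 4 middle libraries below the low dose. IFNAR2, a chain of the type I interferon receptor, measured 47.5, 39.1, 40 and 42.1 CPM in the low-dose libraries and 22.5, 18, 19.4 and 23.2 CPM in the middle-dose libraries. For IFNAR2 the log2 difference was -1.02 (SE 0.17, adjusted p = 0.0735). DOCK10, a guanine nucleotide exchange factor, reached 42.9, 44.5, 49.4 and 52.3 CPM at the low dose against 23.9, 22.4, 31.4 and 22.6 CPM at the middle dose. DOCK10 had a log2 difference of -0.91 (SE 0.16, adjusted p = 0.0735). HCLS1, a cortactin-like protein of blood cells, had 35.1, 29.3, 51.4 and 32.8 CPM after the low dose and 18.7, 18.9, 20.3 and 17.3 CPM after the middle dose. The difference in HCLS1 was -0.98 on the log2 scale (SE 0.18, adjusted p = 0.0735). Middle replicate 3 was as low as the other middle libraries in IFNAR2 and HCLS1 and between the doses in DOCK10. MYO1F, a myosin of immune cells, stood at 34.2, 28.2, 43.5 and 31.3 CPM at the low dose and at 16.8, 9.89, 19 and 12.8 CPM at the middle dose (log2 difference -1.22, SE 0.22, adjusted p = 0.0735). CD84, a receptor of lymphocytes and myeloid cells, measured 36, 23.6, 42.7 and 31.8 CPM in the low-dose libraries and 20, 13.4, 14.2 and 14.1 CPM in the middle-dose libraries. CD84 had a log2 difference of -1.12 (SE 0.20, adjusted p = 0.0735). CXCL11, a chemokine induced by interferon, reached 16.3, 5.1, 12.4 and 15.7 CPM at the low dose against 2.08, 1.56, 2.56 and 2.24 CPM at the middle dose. The difference in CXCL11 was -2.53 on the log2 scale (SE 0.47, adjusted p = 0.0735).

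Without middle replicate 3 the smallest adjusted p belonged to RAMP2, a partner of the adrenomedullin receptor found in blood vessels. It had 22.5, 26.4, 25.4 and 22.6 CPM after the low dose and 104, 105, 20.7 and 93.7 CPM after the middle dose. For RAMP2 the log2 difference was 1.74 (SE 0.39, adjusted p = 0.0735) and 2.06 (adjusted p = 0.000806) without middle replicate 3. WNT5A, a secreted signalling protein, stood at 4.39, 2.17, 4.13 and 4.67 CPM at the low dose and at 21.9, 23.4, 3.14 and 18.9 CPM at the middle dose. WNT5A had a log2 difference of 2.12 (SE 0.50, adjusted p = 0.0735) and 2.48 (adjusted p = 0.00332) without middle replicate 3. Middle replicate 3 lay just under the low range in RAMP2 and within it in WNT5A. Among lower genes, GM2A, a lysosomal lipid-binding protein, measured 139.7, 112, 158 and 146 CPM in the low-dose libraries and 44, 56, 126 and 45.6 CPM in the middle-dose libraries. The difference in GM2A was -1.03 on the log2 scale (SE 0.30, adjusted p = 0.0889) and -1.52 (adjusted p = 0.00332) without middle replicate 3. NFE2L3, a transcription factor, reached 42.1, 53, 47.4 and 51.6 CPM at the low dose against 11.5, 6.76, 37.4 and 11 CPM at the middle dose, and PAK1, a kinase of the cytoskeleton, had 30.2, 33.1, 31.8 and 29.8 CPM after the low dose and 10.8, 11.1, 28.9 and 8.35 CPM after the middle dose. Middle replicate 3 lay just under the low range in NFE2L3 and PAK1, while the other middle libraries were far below.

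Markers of cell types were read in the same libraries. The epithelial markers EPCAM and CDH1 were present in all 8 libraries. EPCAM stood at 299.8, 334, 405 and 377 CPM at the low dose and at 348, 231, 350.4 and 307 CPM at the middle dose. CDH1 measured 418, 341, 566 and 429.5 CPM in the low-dose libraries and 305, 277, 332 and 344 CPM in the middle-dose libraries. Both overlapped, with log2 difference -0.20, SE 0.17, adjusted p = 0.494 for EPCAM. KRT19 and KRT8, further markers of luminal cells, were not analysed here. Of 10 luminal markers tested 8 were lower, with a median of -0.44 (-0.23 without low replicate 3, -0.29 without middle replicate 2, -1.23 by library size alone) and summed levels of 1369.3 to 2173.6 CPM at the low dose and 1166.9 to 1532.1 at the middle dose. KRT7, a keratin of ducts, reached 345, 337, 347 and 366 CPM at the low dose against 106, 74.7, 196 and 99 CPM at the middle dose with no overlap. For KRT7 the log2 difference was -1.55 (SE 0.30, adjusted p = 0.0735). Of 10 myoepithelial markers 5 were lower and 5 higher (median 0.008, -0.90 by library size alone, its sign also turning when any 1 of 5 libraries was left out), and the largest differences were in basal keratins. KRT14 had 46.8, 53.1, 94.7 and 85 CPM after the low dose and 17.4, 23.6, 34.6 and 13 CPM after the middle dose (log2 difference -1.65, SE 0.33, adjusted p = 0.0735), and KRT5 stood at 728, 891, 469 and 1176 CPM at the low dose and at 213, 234, 635 and 169.5 CPM at the middle dose. KRT5 had a log2 difference of -1.38 (SE 0.50, adjusted p = 0.133). KRT14 did not overlap, whereas middle replicate 3 brought KRT5 into the low range. All 11 endothelial markers were higher, 7 at an unadjusted p below 0.05 (12.5% of all genes were), with a median of 0.61 that was -0.50 by library size alone. Their summed level was 750.4 to 962.9 CPM at the low dose, 1284.2, 1293.3 and 1577.6 in middle replicates 1, 2 and 4, and 758.6 in middle replicate 3. KDR, a receptor for vascular endothelial growth factor, measured 139, 146, 109 and 133 CPM in the low-dose libraries and 270.4, 276, 142 and 369.6 CPM in the middle-dose libraries (log2 difference 1.01, SE 0.28, adjusted p = 0.0827). ESAM, an adhesion molecule of vessels, reached 14.6, 14.5, 16.5 and 13.4 CPM at the low dose against 34.6, 27.2, 15.3 and 36.7 CPM at the middle dose. For ESAM the log2 difference was 0.94 (SE 0.25, adjusted p = 0.0813). CDH5, the cadherin of vessel walls, had 59.1, 91.2, 104 and 73.3 CPM after the low dose and 149, 110.1, 108 and 173 CPM after the middle dose without overlap. CDH5 had a log2 difference of 0.72 (SE 0.21, adjusted p = 0.0899).

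All 15 markers of T and NK cells were lower at the middle dose, with a median of -0.80 (-0.50 without low replicate 3, -1.61 by library size alone). Of these, 8 had an unadjusted p below 0.05 (11.3% of all genes did) and 7 lay all below (5.92% of all genes did). Their summed level was 253.7 to 374.4 CPM at the low dose and 90.9 to 212.5 at the middle dose, so the groups did not overlap, and middle replicate 3 held the highest middle value. CD4, the co-receptor of helper T cells, stood at 6.53, 4.19, 13.5 and 6.04 CPM at the low dose and at 1.81, 2.43, 2.27 and 2.44 CPM at the middle dose. The difference in CD4 was -1.76 on the log2 scale (SE 0.37, adjusted p = 0.0735). CD247, the zeta chain of the T cell receptor complex, measured 14, 11.4, 17.5 and 13.1 CPM in the low-dose libraries and 6.53, 4.86, 7.9 and 8.76 CPM in the middle-dose libraries (log2 difference -1.0, SE 0.23, adjusted p = 0.0735). CD5, a surface protein of T cells, was highest in middle replicate 3 and otherwise low at the middle dose, and reached 16.3, 39.2, 19.5 and 20.8 CPM at the low dose against 11.7, 4.86, 58.5 and 9.98 CPM at the middle dose. CD5 had a log2 difference of -0.15 (SE 0.61, adjusted p = 0.904). Of 12 macrophage markers 11 were lower, 9 at an unadjusted p below 0.05 (11.3% of all genes were), with a median of -0.84 (-1.52 by library size alone). Their summed level was 364.1 to 927.9 CPM at the low dose and 352.3 to 470.3 at the middle dose, an overlap due to low replicate 2. AIF1, a calcium-binding protein of macrophages, had 34.8, 36.2, 52.2 and 47.5 CPM after the low dose and 16.9, 17.9, 30.1 and 18.1 CPM after the middle dose (log2 difference -1.03, SE 0.23, adjusted p = 0.0735), and FCER1G, an adaptor of Fc receptors, stood at 27.2, 21, 31 and 28.1 CPM at the low dose and at 12.2, 11.6, 18.1 and 7.33 CPM at the middle dose. The difference in FCER1G was -1.11 on the log2 scale (SE 0.24, adjusted p = 0.0735). Neither overlapped. Antigen presentation was lower in 12 of 14 genes (median -0.70, -1.15 without middle replicate 3, -1.37 by library size alone). CTSS, a protease that trims the invariant chain, measured 236, 154, 281 and 224 CPM in the low-dose libraries and 101, 94.3, 159.9 and 81.9 CPM in the middle-dose libraries. For CTSS the log2 difference was -1.03 (SE 0.24, adjusted p = 0.0735). CD74, the invariant chain, reached 978, 843, 1417 and 1091 CPM at the low dose against 475, 499.8, 873 and 357 CPM at the middle dose (log2 difference -0.97, SE 0.29, adjusted p = 0.0924). Of 8 neutrophil markers 7 were lower (median -0.87, -0.53 without low replicate 1, -1.66 by library size alone), with summed levels of 28.2 to 56.5 CPM at the low dose and 18.4 to 48.6 at the middle dose. B and plasma cell markers were lower in 5 of 9 (median -0.31, but 0.37 without low replicate 3 and of turned sign with limma voom and in the larger layout), with summed levels of 117.6 to 592.6 and 295.5 to 524.8 CPM. The part of leucocyte content in the lower HCLS1, MYO1F, CD84 and CXCL11 was not tested.

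In several other lists single low libraries stood above the rest. All 21 interferon response genes tested were lower at the middle dose, with a median of -1.48 (-2.34 by library size alone), and 17 had an unadjusted p below 0.05 (11.3% of all genes were lower at that level). Without low replicate 4 the median was -0.39. Their summed level was 2867.7 CPM in low replicate 4 and 672 to 897.7 in the other low libraries, against 474.5 to 627.3 at the middle dose. MX1, an antiviral GTPase, had 32.4, 28, 58.8 and 358 CPM after the low dose and 16.5, 36.9, 30.5 and 20 CPM after the middle dose (log2 difference -2.20, SE 0.72, adjusted p = 0.109), and low replicate 4 stood far above the other 7 libraries. IFI44, another interferon-induced gene, stood at 23.9, 21.6, 27.7 and 108 CPM at the low dose and at 13.7, 12.8, 18.9 and 11 CPM at the middle dose (log2 difference -1.67, SE 0.47, adjusted p = 0.0825), and again low replicate 4 was the highest. The 3 red blood cell genes tested were lower, and their summed level was 426.7 CPM in low replicate 1 against 0.7 to 22.2 in the other low libraries and 0 to 16.1 at the middle dose. HBBC, a beta-type globin, measured 255, 11.5, 0.42 and 1.37 CPM in the low-dose libraries and 11, 0, 0.0731 and 2.65 CPM in the middle-dose libraries. Fibroblast and matrix markers were lower in 8 of 8 (median -0.69, -0.44 without low replicate 4, -1.54 by library size alone), with summed levels of 3579.2 to 19952.4 CPM at the low dose and 1897.1 to 7274.1 at the middle dose. COL3A1, a fibrillar collagen, reached 2782, 3222, 1046 and 8107 CPM at the low dose against 1949, 718, 3604 and 519.6 CPM at the middle dose and overlapped widely. For COL3A1 the log2 difference was -1.16 (SE 0.75, adjusted p = 0.361). In the involution list 17 of 22 genes were lower (median -0.45, -0.68 without low replicate 2, -1.34 by library size alone), and CLU, clusterin, a protein of regressing glands, had 1788, 721, 8749.6 and 1254 CPM after the low dose and 521, 433, 729.5 and 285 CPM after the middle dose (log2 difference -2.67, SE 0.72, adjusted p = 0.0813), highest in low replicate 3 like LTF. Of 24 lysosomal genes 18 were lower (median -0.33, -0.18 without low replicate 3, -1.13 by library size alone), and 9 of them had an unadjusted p below 0.05 (11.3% of all genes were lower at that level). CTSB, the protease cathepsin B, stood at 544, 309, 519.8 and 337 CPM at the low dose and at 179, 165, 413 and 158 CPM at the middle dose, with middle replicate 3 in the low range (log2 difference -0.90, SE 0.34, adjusted p = 0.141). The part of blood, matrix and inflammatory content of these biopsies in the other differences was not tested.

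Cell division genes were low in the 3 milk-rich libraries. All 24 cell cycle genes were lower at the middle dose, with a median of -1.53 (-1.77 by library size alone), yet only 4 had an unadjusted p below 0.05 (11.3% of all genes were lower at that level) and 0 lay all below (5.92%). Middle replicate 3 was nearer to the low-dose mean in all 24, against 67% of all genes. In 22 of the 24, middle replicates 1, 2 and 4 were below all 4 low libraries, as they were in 2431 of the 13624 genes tested. Without middle replicate 3 the median was -2.81 and edgeR called 18 of the 24 lower (8.85% of all genes were). MKI67, a marker of dividing cells, measured 56.4, 80.1, 45.3 and 75.7 CPM in the low-dose libraries and 1.94, 2.77, 63 and 2.85 CPM in the middle-dose libraries. For MKI67 the log2 difference was -1.81 (SE 1.12, adjusted p = 0.338) and -4.68 (adjusted p = 0.0148) without middle replicate 3. TOP2A, the topoisomerase of dividing cells, reached 71.9, 128, 53.9 and 108 CPM at the low dose against 5.14, 5.55, 108 and 3.26 CPM at the middle dose. TOP2A had a log2 difference of -1.54 (SE 1.13, adjusted p = 0.417). RRM2, the ribonucleotide reductase subunit made for DNA synthesis, had 22.6, 40.3, 25.6 and 44.8 CPM after the low dose and 0.694, 0.867, 27 and 0.611 CPM after the middle dose. BIRC5, survivin, needed in mitosis, stood at 16, 23.5, 10.9 and 21.8 CPM at the low dose and at 0, 0.173, 19.2 and 0 CPM at the middle dose. In these 4 genes the split between middle replicates 1, 2 and 4 and the other 5 libraries was complete. CCND1, cyclin D1, measured 87.4, 180.2, 23.4 and 96.9 CPM in the low-dose libraries and 16.5, 14.6, 109.5 and 17.3 CPM in the middle-dose libraries (log2 difference -1.28, SE 0.76, adjusted p = 0.322), and CCNA2, cyclin A2, reached 16.8, 22.1, 15.3 and 22.7 CPM at the low dose against 10.8, 8.15, 16.3 and 8.76 CPM at the middle dose (log2 difference -0.79, SE 0.31, adjusted p = 0.159), a smaller split.

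The chaperones of the endoplasmic reticulum gave a mixed picture, with 18 of 22 genes higher (median 0.35, 0.23 without middle replicate 2, -0.51 by library size alone) and 4 lying all above (5.93% of all genes did). XBP1, a transcription factor that expands the secretory apparatus, had 118, 140.2, 145 and 152 CPM after the low dose and 225, 218, 198 and 230.4 CPM after the middle dose. The difference in XBP1 was 0.65 on the log2 scale (SE 0.43, adjusted p = 0.37). P4HB, a disulfide isomerase, stood at 351, 427, 440.1 and 424 CPM at the low dose and at 568, 692, 543 and 621 CPM at the middle dose (log2 difference 0.56, SE 0.19, adjusted p = 0.112). Neither overlapped between doses. SEL1L, of the pathway that removes misfolded proteins, measured 18.2, 16.3, 20.7 and 22.8 CPM in the low-dose libraries and 40.7, 44.9, 21 and 50.7 CPM in the middle-dose libraries. SEL1L had a log2 difference of 1.01 (SE 0.24, adjusted p = 0.0735). HSPA5, the main chaperone there, reached 404, 384, 387 and 442 CPM at the low dose against 299.8, 468, 502 and 435 CPM at the middle dose and overlapped. The difference in HSPA5 was 0.077 on the log2 scale (SE 0.30, adjusted p = 0.899). OCLN, occludin, a protein of the tight junctions that seal the lactating epithelium, had 83.3, 78, 99.5 and 73 CPM after the low dose and 159, 167, 111 and 143 CPM after the middle dose, and all 4 middle libraries were above the low ones. For OCLN the log2 difference was 0.80 (SE 0.18, adjusted p = 0.0735). Of 10 tight junction genes 7 were higher and 3 lower (median 0.34, -0.54 by library size alone) and 3 lay all above (5.93% of all genes did). At an unadjusted p below 0.05, 4 were higher and 1 lower (12.5% and 11.3% of all genes were). The lower gene was CLDN1, claudin 1 (log2 difference -0.89, SE 0.30, adjusted p = 0.118). The 16 cytosolic heat shock genes had 9 higher and 7 lower and no unadjusted p below 0.05 (12.5% of all genes were higher and 11.3% lower at that level). Their median of 0.092 was -0.69 by library size alone, and its sign also turned when any 1 of 3 libraries was left out. Of the 26 extracellular matrix genes 9 were higher and 17 lower (median -0.19, from -0.32 to -0.11 with single libraries left out, -1.06 by library size alone). Of 9 pentose phosphate and NADPH genes 7 were higher (median 0.28, 0.12 without middle replicate 2, -0.68 by library size alone). Hypoxia genes numbered 7 higher and 6 lower (median 0.063, -0.93 by library size alone, and from -0.091 to 0.16 with single libraries left out). Of the 4 adipocyte markers tested 3 were lower (median -0.49, but 0.15 without low replicate 3), at summed levels of 6.57 to 29.6 CPM at the low dose and 5 to 19.5 at the middle dose, and the 1 skeletal muscle gene tested stayed under 1 CPM in all 8 libraries.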

How the data were processed

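Per the labels' protocols, biopsies were frozen, RNA was taken up with Trizol and a TruSeq kit served for library preparation. The deposited tables hold read counts per gene, made by the authors with the goat gene names they list. The submitters' processing notes name Bowtie 0.12.2 and mm8, a mouse build, which does not match tables of goat genes. The sources used here give neither the goat build nor the counting tool nor its use of strand, so genes that overlap, antisense genes and near-identical copies such as globins are uncertain. The tables come in 2 layouts, of 15991 genes (8 libraries) and 16030 genes (middle replicate 1, low replicate 3 and 2 high-dose libraries), and the 15810 gene IDs listed in all 12 were joined. Of these, 15384 (97.3%) matched ARS1.2 in RefSeq, which supplied 659 names and replaced 22 date-like ones; a name held by several IDs was read at the ID with most reads.

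From the counts, edgeR 4.0.16 (R 4.3.3) was run with TMM scaling (factors 0.514 to 1.5), filterByExpr (minimum count 10, minimum total 15, 2186 genes removed), glmQLFit and glmQLFTest on all 12 libraries with the contrast middle minus low, and Benjamini-Hochberg adjustment. The common biological coefficient of variation was 0.363. CPM are counts relative to the TMM-scaled library size, so a gene that fills much of a library can exceed its share of the counts; principal components used log2 CPM with a prior count of 2. Library values were compared with exact permutation tests (scipy 1.17.1). Alternatives were DESeq2 1.42.0, limma 3.58.1 voom with quality weights, other scalings, no filter, a replicate block, a layout term, the larger layout alone and each library left out. Depth was about equal between libraries, but with milk reads set aside it was lowest in 3 middle libraries, where low genes are less precise. The scripts were tested on simulated data. No 2 libraries of the same dose agreed within sampling noise.

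The members and gene lists were chosen with earlier results of these data known. Genes named were those of smallest p (12 each way), of widest gap between doses (8 each way), of smallest p without middle replicate 3 (8 each way), up to 4 per list by p, all milk proteins and a set of genes always given; genes of the first 3 kinds needed a unique symbol and, on average, a log2 CPM of 1 or more, and uniqueness was required after the tables were seen. Only some of these are described, a few are not reported here, and other genes in the text were chosen after their values were seen. Lists were edited after the tables were seen: KRT8 was dropped because its ID carries another name, and the aliases HSP70.1 and LDH-A and 4 globin names were added, LDH-A after its values were seen.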

Additional observations from a re-analysis of the deposited data

Results flagged for a closer look

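A library was singled out where, in a group of 4, the gap from the highest or lowest value to its nearest neighbour, divided by the whole range of the group, exceeded Dixon's critical value. This was read on the log2 scale in the milk protein share, in 119 genes and in 10 gene lists, and on the plain scale in the total count and the number of genes detected. Among 264 groups so read, 46 stood out, 36 of them through middle replicate 3. Chance alone singles out about 5% of groups, but that rate is no yardstick here. Some of the genes were chosen by their p without middle replicate 3 or after their values were seen. Such a choice favours flags on that library, and genes that share a pattern are not independent.

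Middle replicate 3 held a milk protein share of 3.44%, below the 52% to 59% of the other middle libraries. It lay below the other middle libraries in the milk proteins CSN2 (10325.7 CPM), PAEP (8477 CPM), LALBA (796.5 CPM), GLYCAM1 (165.1 CPM), CSN1S1 (21.4 CPM) and LPO (0.804 CPM). The same held in genes of fat and lactose synthesis: UGP2 (215.8 CPM), H-FABP (166.2 CPM), BTN1A1 (111.3 CPM), LPL (107.4 CPM), AGPAT6 (56.8 CPM) and SLC2A1 (18.2 CPM). It was also low in PSAT1 (85.8 CPM), SLC1A5 (49.1 CPM), MTHFD2 (19 CPM), SLC7A5 (18.6 CPM) and CARS (13.5 CPM), genes of amino acid supply, folate metabolism and tRNA charging. The calcium and zinc transporters ATP2C2 (42.6 CPM) and SLC30A2 (1.97 CPM) and the pyruvate carrier MPC2 (13.7 CPM) followed the same pattern. So did NUDT12 (97.4 CPM), CAMKK2 (24.3 CPM), RAMP2 (20.7 CPM) and WNT5A (3.14 CPM).

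In the opposite direction, middle replicate 3 exceeded the other middle libraries in the cell division genes CCND1 (109.5 CPM), TOP2A (107.9 CPM), MKI67 (63 CPM), RRM2 (27 CPM) and BIRC5 (19.2 CPM). It was also high in CTSB (412.9 CPM), AIF1 (30.1 CPM) and ACAD8 (14.6 CPM). Its mean log2 CPM was low over the triglyceride list (6.09) and the serine and ATF4 list (4.17), and high over the cell cycle list (4.42).

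Low replicate 2 stood below the other low libraries in ARRDC4 (47.8 CPM), IRS1 (43.3 CPM), KLF10 (42.9 CPM) and WNT5A (2.17 CPM), and above them in STAT5A (356.3 CPM). Low replicate 4 was high in IFI44 (108.1 CPM), low replicate 1 was low in P4HB (351.2 CPM), and middle replicate 1 was high in CD84 (20 CPM). Over the T and NK cell markers, the mean log2 CPM was lowest in middle replicate 2 (2.49) and highest in low replicate 3 (4.42).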

How the results depend on the processing

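The count of 0 genes at an adjusted p below 0.05 in edgeR held with DESeq2 size factors, library size alone, milk genes out of the scaling, no filter (15810 genes), only the 8 libraries, a layout term and the larger layout, but DESeq2 called 1410 and limma voom with quality weights 4701. Leaving out 1 library gave 0 to 2415 calls: 2415 without middle replicate 3, 16 without low replicate 2, 1 without middle replicate 2 and 0 otherwise. Genes without overlap, 1614 in all, numbered 3171 in the larger layout (fewer libraries) and 1764 to 4834 with 1 library left out (4834 without middle replicate 3, 2689 without low replicate 2, 2765 without low replicate 3). The exact permutation p of the milk share, 0.0857, ran from 0.0286 (without middle replicate 3) to 0.229. That of genes detected, 0.0286, ran from 0.0286 to 0.0571, the latter without any 1 low library, and was 0.1 in the larger layout, the smallest its 20 arrangements allow. With the replicate number as a replicate block, edgeR called 0 genes (1404 higher and 1465 lower at an unadjusted p below 0.05). Deviations of same-numbered libraries correlated at -0.0181, -0.301, -0.535 and -0.0683. They were taken from dose means that include middle replicate 3, so they cannot tell whether the numbers pair the libraries. Of 230 named genes, 184 kept their sign by library size alone and at least 225 under each other setting (225 of the 225 that DESeq2 tested). Without middle replicate 3, 173 of them were newly called, where 8.87% of all genes were called higher and 8.85% lower. DESeq2 newly called 157 of them and limma voom with quality weights 202. Many of these genes were named for a small p, some in the fit without middle replicate 3, so a high count was built in. Library size alone moved 34 of the list medians by more than their spread between libraries, and turned 18 of 38. In middle replicates 1, 2 and 4, fewer reads outside milk genes limit what can be seen of low genes.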
